A study of Mus musculus with 48 samples.

Results

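The genes described here are 9 subunits of Polycomb repressive complex 1 (PRC1) whose paralogs can stand in for each other: the chromodomain genes Cbx2, Cbx6, Cbx7 and Cbx8, the PCGF genes Pcgf2, Bmi1, Pcgf5 and Pcgf6, and Rnf2. They were found by gene symbol in the deposited table of raw counts, and all 9 were present among the 36935 genes kept from it, with 1 entry each. All 9 passed the filter on low counts in every comparison. RNA was sequenced from the mouse embryonic stem cell (ESC) line E14 and from 3 knockout lines made in it, each carried through neuronal differentiation. The groups were the double knockout (KAT6A-/-; KAT6B-/- dKO), the KAT6A knockout (KAT6A-/- KO), the KAT6B knockout (KAT6B-/- KO) and wildtype E14, at days 0, 2, 6 and 15. With 3 replicates from independent differentiations this made 16 groups and 48 libraries. Day 0 cells were undifferentiated ESCs kept with LIF, day 2 samples were embryoid bodies without LIF, day 6 samples were embryoid bodies given 10 µM all-trans retinoic acid from day 4, and day 15 samples were cells dissociated on day 8 and plated in neuronal medium. KAT6A and KAT6B are histone acetyltransferases of the MYST family. Whether a knockout line is 1 clone, and which exons were edited, is not given in the sources used here.

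PRC1 is the Polycomb complex that ubiquitinates histone H2A and holds developmental genes silent. Its catalytic core is a RING1 protein, RNF2 (RING1B) or RING1, bound to a PCGF protein, and the PCGF partner sets which kind of complex is made. Canonical complexes hold PCGF2 (MEL18) or BMI1 (PCGF4) with a CBX protein, whose chromodomain reads methylated histone H3, while variant complexes hold PCGF1, PCGF3, PCGF5 or PCGF6 with RYBP or YAF2 in place of CBX. In mouse ESCs, CBX7 is known as the CBX protein of most canonical PRC1, with CBX2 and CBX8 among those taking over in differentiated cells.

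The 4 Cbx members lie in 2 neighbouring pairs. In the deposited table (GRCm39), Cbx2 (chr11:118913788-118922096, plus strand) and Cbx8 (chr11:118927131-118931795, minus strand) were separated by 5.03 kb, and Cbx6 (chr15:79708097-79718889) and Cbx7 (chr15:79800008-79855320), both on the minus strand, by 81.1 kb. Pcgf2 spanned chr11:97579649-97591323 (minus strand), Bmi1 chr2:18681829-18691440 (plus), Pcgf5 chr19:36325709-36438370 (plus), Pcgf6 chr19:47022056-47039345 (minus) and Rnf2 chr1:151333755-151376706 (minus). Bmi1 began 786 bases downstream of Commd3 on the same strand. Cbx6 shared 10342 bases of its strand with Npcd, a gene whose mean was 15.1 CPM beside 106 CPM for Cbx6, and Rnf2 shared 3029 bases of its strand with the predicted gene Gm36527. How reads in shared exons were assigned is not given in the sources used here, so the counts of Cbx6, and to a lesser extent Rnf2, are uncertain.

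The bases just upstream of the start site are shown for some of the genes that changed in E14 cells between day 0 and day 15. They are 2 that rose (Bmi1 and Cbx8) and 3 that fell (Pcgf2, Cbx7 and Pcgf6). Pcgf5, which also rose and has several annotated starts, is not shown. The sequences were taken from RefSeq (GRCm38.p6), which is another build than that of the counts, as the 250 bases before the start without bases in an annotated exon. RefSeq's table had an entry for 8 of the 9 genes, all but Cbx2. The sequences run 5′ to 3′ on the strand of the gene, and capitals mark the E-box CACGTG, a palindrome and the core site of MYC, MAX and MGA type factors. It is shown because MGA and MAX are known partners of PCGF6.
Bmi1 (chr2:18676768-18677017, plus strand): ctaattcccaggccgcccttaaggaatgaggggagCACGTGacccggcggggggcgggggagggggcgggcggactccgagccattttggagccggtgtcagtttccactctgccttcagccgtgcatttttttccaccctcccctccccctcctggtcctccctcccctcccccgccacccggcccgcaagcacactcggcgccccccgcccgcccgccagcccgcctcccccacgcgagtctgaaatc
Cbx8 (chr11:119040970-119041163, minus strand): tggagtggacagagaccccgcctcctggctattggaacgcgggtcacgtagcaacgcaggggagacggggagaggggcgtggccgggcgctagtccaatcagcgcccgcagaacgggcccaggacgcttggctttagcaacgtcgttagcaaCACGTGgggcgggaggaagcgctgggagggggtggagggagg
Pcgf2 (chr11:97699649-97699898, minus strand): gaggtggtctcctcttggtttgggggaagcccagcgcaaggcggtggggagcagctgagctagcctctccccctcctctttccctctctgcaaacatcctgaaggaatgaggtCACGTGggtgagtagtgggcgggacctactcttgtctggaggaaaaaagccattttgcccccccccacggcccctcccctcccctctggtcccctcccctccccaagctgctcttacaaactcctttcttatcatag
Cbx7 (chr15:79932769-79932896, minus strand): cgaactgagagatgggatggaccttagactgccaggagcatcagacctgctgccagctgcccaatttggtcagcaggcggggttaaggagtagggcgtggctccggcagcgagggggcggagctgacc
Pcgf6 (chr19:47050907-47051156, minus strand): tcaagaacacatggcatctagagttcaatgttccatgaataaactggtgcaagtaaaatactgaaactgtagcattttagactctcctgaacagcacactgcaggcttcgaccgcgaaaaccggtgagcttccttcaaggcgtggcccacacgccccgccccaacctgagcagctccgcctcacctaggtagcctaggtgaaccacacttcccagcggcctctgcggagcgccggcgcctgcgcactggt
An E-box stood within the 250 bases of 4 of the 8 genes, namely Bmi1, Cbx8, Pcgf2 and Cbx6, beside 6.02% of 32851 RefSeq promoters. That share is per promoter, not per gene, and covers promoters of any base composition. All 250 bases of the Cbx6 window lay in an annotated exon of Cbx6, so that its match is exonic. The motif holds the bases CG. The windows of Bmi1, Cbx8 and Cbx6 had 21, 22 and 20 CG pairs and that of Pcgf2 had 5, beside a median of 6 over all promoters. The part of base composition in these matches was not tested. The 4 do not share a direction over the time course: Bmi1 and Cbx8 rose and Pcgf2 fell in E14 cells, and Cbx6 was not called there at day 15. On both strands, the E2F motif GCGGGAA was found upstream of 1 start of Pcgf5 (3.82% of promoters), and the retinoic acid receptor motif AGGTCA upstream of Pcgf2 (14% of promoters), where it overlaps the E-box. The DR5 direct repeat of that motif was found in none of the 8 genes and in 0.00913% of promoters. A match is a stretch of letters in these windows and says nothing of binding.

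Total counts ran from 22.5 to 72.23 M per library. The level of a gene is given as CPM, its count scaled to the size of the library, with library sizes adjusted by trimmed means (TMM), and levels of different genes are not compared with each other, since they are not per unit of length. The knockout labels were checked on the counts over the whole targeted genes: mean Kat6a was 50.2% to 66.9% of E14 in the KAT6A knockout and 59.5% to 75% in the double knockout, and mean Kat6b was 59.6% to 96.4% of E14 in the KAT6B knockout and 65.5% to 94.6% in the double knockout, over the 4 days. At day 15, Kat6b was at 126, 79.6 and 73.9 CPM in the KAT6B knockout and 80.3, 84.8 and 109 CPM in the double knockout, against 91.8, 93.6 and 105 CPM in E14. Replicate 1 of the KAT6B knockout and replicate 3 of the double knockout thus lay above all E14 libraries of that day, against their labels. A count over a gene does not show whether an edited exon is lost. The labelled cell states were checked on marker sums: in E14 the 6 pluripotency markers summed to 2470 to 2870 CPM at day 0 and the 7 neuron markers to 1350 to 2430 CPM at day 15. At day 15 the 7 neuron markers summed to 139 to 823 CPM in the double knockout, 321 to 1280 in the KAT6A knockout and 63.8 to 882 in the KAT6B knockout. At day 0 they summed to 229 to 257, 297 to 316 and 245 to 266 CPM in these lines. Double knockout replicate 3 (139) and KAT6B knockout replicate 2 (63.8) at day 15 thus lay below their own ESCs. The endoderm markers at day 15 summed to 592 to 907 CPM in E14, and to 1290 to 1570, 742 to 1430 and 307 to 1670 CPM in the double, KAT6A and KAT6B knockouts. The library that stood apart on the mesenchyme markers was the KAT6B knockout at day 15, replicate 1. It had 17600 CPM of 6 mesenchyme markers, where the other 11 day 15 libraries had 1580 to 8060. It is the same library in which Kat6b was at 126 CPM, and the results of that group are also given without it. Its 882 CPM of neuron markers were the highest of its group, beside 63.8 CPM in replicate 2 and 384 CPM in replicate 3. Fits without it thus keep the libraries of that group with the lowest neuron marker sums. In such bulk samples, fewer cells of a type and less RNA per cell cannot be told apart.

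In E14 cells the composition of the family turned over between day 0 and day 15. At day 15, Cbx8, Bmi1 and Pcgf5 were higher than at day 0, Cbx2, Cbx7, Pcgf2 and Pcgf6 were lower, and Cbx6 and Rnf2 passed no threshold. Differences are log2 changes with their standard error (SE) from edgeR's quasi-likelihood test, and a gene was called at a Benjamini-Hochberg adjusted p under 0.05 over all genes tested. Between days 2 and 6 edgeR called 6 of the 9 (41.7% of genes) and between days 6 and 15 it called 7 (54.6%). The 7 of 9 called at day 15 against day 0 stand beside 69.7% of the 20503 genes tested, and the 7 of 9 at day 6 beside 50%, so that change as such does not set the family apart. Higher calls made up 36.5% of all genes and lower calls 33.2%, for 3 and 4 of the 9. The members' median change at day 15 was -0.03, and that of all genes 0.08. At day 2 against day 0, 2 of the 9 members were called, beside 21.6% of genes, a similar share. The E14 marker sums moved as well: the 6 proliferation markers summed to 739 to 900 CPM at day 15 and 2540 to 3130 CPM at day 0, and the mesenchyme markers to 1580 to 4080 CPM at day 15 and 188 to 298 CPM at day 0. Their part in the changes of the family was not tested.

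**Figure D1:**
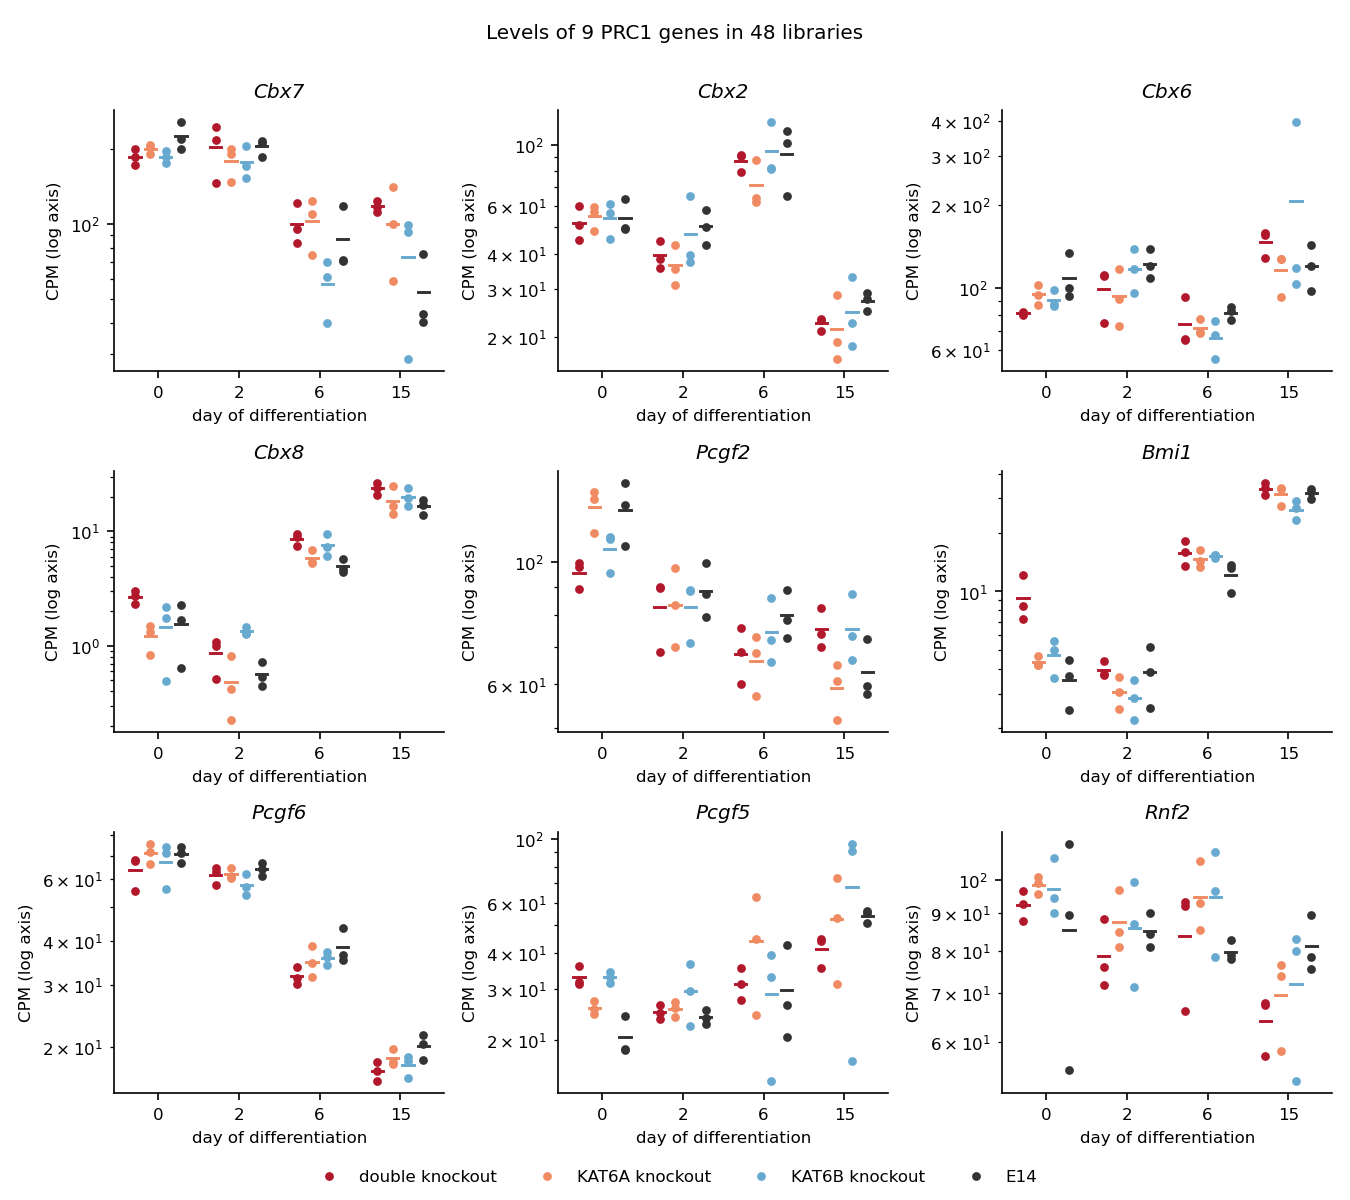
Level of each of the 9 genes (CPM, log axis) by day of differentiation, with points for the 48 libraries, bars for the group means of 3, and the double knockout, KAT6A knockout, KAT6B knockout and E14 left to right at each day. Bmi1 and Cbx8 are highest and Pcgf6 lowest at day 15 in every genotype.

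Cbx7 fell in E14 cells after day 2. Its level was 257, 199 and 220 CPM at day 0, 216, 186 and 212 CPM at day 2, 70.5, 118 and 71.7 CPM at day 6, and 43.3, 75.5 and 40.3 CPM at day 15. Days 0 and 2 overlapped, and every day 6 and day 15 library lay below them. At day 15 Cbx7 was 4.12-fold lower than at day 0 (log2 -2.04 ± 0.25, adjusted p = 4.77e-06). At day 6 the change from day 0 was -1.34 ± 0.24 (adjusted p = 0.000417). The step between days 6 and 15 (-0.70 ± 0.24, adjusted p = 0.0225) had overlapping groups and passed the threshold in 3 of the 6 fits that left out a library, not without day 15 replicate 1 or 3 or day 6 replicate 2.

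Cbx2, whose protein compacts nucleosomes as well as reading the mark, peaked at day 6. It stood at 63.4, 49.2 and 49.8 CPM at day 0, 58.1, 50.4 and 43.0 CPM at day 2, 101, 65.1 and 112 CPM at day 6, and 29.0, 27.4 and 24.9 CPM at day 15. All day 6 libraries were above, and all day 15 libraries below, those of the other days. Cbx2 was 0.81 ± 0.19 higher at day 6 than at day 0 (adjusted p = 0.003) and 1.77 ± 0.19 lower at day 15 than at day 6 (log2 -1.77, adjusted p = 4.87e-06). Its day 15 level was 1.95-fold below day 0 (-0.96 ± 0.19, adjusted p = 0.000483).

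Cbx8, a CBX protein known from differentiated cells, dipped and then rose to its highest level. It had 2.28, 0.641 and 1.69 CPM at day 0, 0.533, 0.723 and 0.446 CPM at day 2, 5.73, 4.37 and 4.72 CPM at day 6, and 18.8, 16.9 and 14 CPM at day 15. The day 6 and day 15 groups each lay above all libraries of the days before. Cbx8 was 11.3-fold higher at day 15 than at day 0 (3.49 ± 0.38, adjusted p = 1.66e-06), with steps of 3.17 ± 0.39 between days 2 and 6 (adjusted p = 3e-05) and 1.75 ± 0.34 between days 6 and 15 (adjusted p = 0.000637). The dip at day 2 (-1.42 ± 0.40, adjusted p = 0.022) rests on few reads: the groups overlapped and it passed in 2 of the 6 fits with a library left out, those without day 0 replicate 2 or day 2 replicate 2. Across all 48 libraries the lowest Cbx8 count was 9 and the highest 1618.

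Cbx6, a CBX protein whose role in PRC1 is less settled, was lowest at day 6 in E14 cells. Its levels were 134, 94.0 and 100 CPM at day 0, 138, 120 and 109 CPM at day 2, 83.0, 85.7 and 76.7 CPM at day 6, and 143, 97.9 and 120 CPM at day 15. The day 6 libraries lay below all others. Cbx6 was lower at day 6 than at day 2 (-0.54 ± 0.16, adjusted p = 0.0155) and higher at day 15 than at day 6 (0.56 ± 0.16, adjusted p = 0.00936). The first of these steps lost its call without day 2 replicate 1 or day 6 replicate 3, and the second without day 15 replicate 1. Day 15 and day 0 differed by 0.17 ± 0.16 (adjusted p = 0.354), or 0.35 (adjusted p = 0.0497) without day 0 replicate 1. Npcd, which shares its strand, had 34.7, 20.0 and 23.8 CPM at day 15 and 12.6, 11.8 and 14 CPM at day 0.

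Among the PCGF genes of canonical PRC1, Bmi1 rose and Pcgf2 fell. Bmi1 had 2.47, 3.67 and 4.48 CPM at day 0, 3.85, 5.20 and 2.52 CPM at day 2, 13.2, 9.82 and 13.6 CPM at day 6, and 33.5, 29.6 and 32.2 CPM at day 15. Days 0 and 2 overlapped, and day 6 and then day 15 each lay above all libraries before. The day 15 level was 9.15-fold that of day 0 (3.19 ± 0.28, adjusted p = 2.5e-07), and both steps after day 2 passed the threshold (1.71 ± 0.27, adjusted p = 0.000202, and 1.38 ± 0.26, adjusted p = 0.000468). Pcgf2 had 127, 107 and 139 CPM at day 0, 87.3, 79.4 and 99.5 CPM at day 2, 78.6, 72.8 and 89.1 CPM at day 6, and 72.6, 59.7 and 57.6 CPM at day 15. Every Pcgf2 library of a later day lay below the day 0 libraries, while days 2 and 6 overlapped. Pcgf2 was 1.91-fold lower at day 15 than at day 0 (-0.94 ± 0.14, adjusted p = 3.87e-05). Its change at day 2 (-0.49 ± 0.14, adjusted p = 0.0239) passed in 2 of the 6 fits with a library left out, those without day 0 replicate 2 or day 2 replicate 3.

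The PCGF genes of variant PRC1 also parted. Pcgf6, subunit of the variant complex with MGA, MAX and L3MBTL2 that silences germline genes in ESCs, had 74.0, 66.7 and 71.3 CPM at day 0, 61.5, 64.2 and 66.9 CPM at day 2, 43.7, 36.6 and 35.4 CPM at day 6, and 21.7, 20.4 and 18.4 CPM at day 15. Its day 6 and day 15 groups each lay below all earlier libraries. Pcgf6 was 3.42-fold lower at day 15 than at day 0 (-1.77 ± 0.12, adjusted p = 3.18e-08), and fell between days 2 and 6 (-0.69 ± 0.12, adjusted p = 0.000434) and again between days 6 and 15 (-0.93 ± 0.12, adjusted p = 2.02e-05). Pcgf5, whose protein forms a variant complex that can hold AUTS2 in neural cells, had 18.7, 24.3 and 18.5 CPM at day 0, 23.9, 22.8 and 25.4 CPM at day 2, 26.5, 42.8 and 20.5 CPM at day 6, and 56.0, 55.3 and 50.9 CPM at day 15. Only its day 15 group lay clear of the others. Pcgf5 was 2.71-fold higher at day 15 than at day 0 (1.44 ± 0.22, adjusted p = 4.01e-05). At day 6 its call (0.58 ± 0.21, adjusted p = 0.0358) passed in 3 of the 6 fits with a library left out, not without day 0 replicate 1 or 3 or day 6 replicate 2.

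Rnf2, the E3 ligase of most PRC1 in ESCs, had the narrowest range of group means of the 9. It had 54.9, 112 and 89.4 CPM at day 0, 81.0, 84.2 and 90.2 CPM at day 2, 78.8, 82.7 and 77.8 CPM at day 6, and 75.4, 78.4 and 89.5 CPM at day 15. The day 0 libraries spanned all other E14 values, with replicate 1 lowest and replicate 2 highest. The change at day 15 against day 0 was -0.03 ± 0.19 (adjusted p = 0.882), and no E14 comparison of days called it. Over all 16 group means, Rnf2 ran from 64.2 CPM (double knockout, day 15) to 98.5 CPM (KAT6A knockout, day 0), a ratio of 1.53.

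The same comparisons were made within each knockout line against its own day 0. The comparisons of a line share its day 0 libraries. Cbx8, Bmi1, Cbx7, Cbx2 and Pcgf6 were called at day 15 in all 4 genotypes with the same direction. The share of all genes called alike in all 4 genotypes is not given here, so this does not set the family apart. Called members at day 15 numbered 9 of 9 in the double knockout (4 higher and 5 lower, beside 67.6% of genes, 33.6% higher and 34.1% lower), 8 of 9 in the KAT6A knockout (3 higher and 5 lower, beside 68.7%, 35.8% higher and 32.9% lower) and 6 of 9 in the KAT6B knockout (3 higher and 3 lower, beside 61.9%, 33.6% higher and 28.2% lower). At day 6 the counts were 6, 6 and 5 of 9, beside 47.5%, 52.3% and 42.8% of genes. At day 2 they were 2, 2 and 0 of 9, beside 11.2%, 19.7% and 4.02% of genes. With a term for the replicate number, whose same-numbered libraries deviated together in this comparison, the double knockout at day 2 had 3 calls, Cbx2 being added (-0.40 ± 0.13 in edgeR without the term, adjusted p = 0.0748, and -0.39, adjusted p = 0.0435, with it). In the KAT6B knockout at day 2, 1 member had an unadjusted p under 0.05 and DESeq2 called 1, Bmi1 (-0.73, adjusted p = 0.0281).

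**Figure D2:**
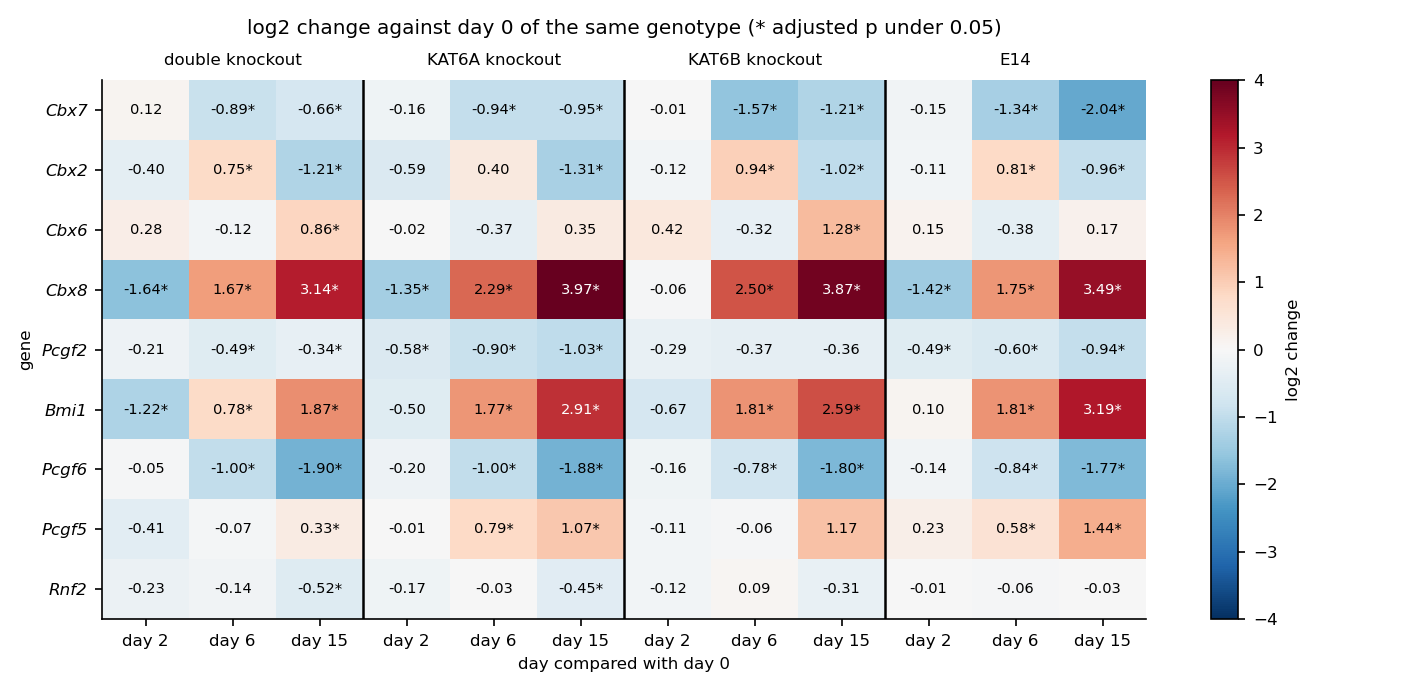
log2 change of each gene (rows) at days 2, 6 and 15 against day 0 of the same genotype (columns), from edgeR, where red is higher and blue lower than day 0 and an asterisk marks an adjusted p under 0.05. Cbx8 and Bmi1 are called higher, and Cbx7 and Pcgf6 lower, at days 6 and 15 in all 4 genotypes.

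Pcgf6 moved most alike in the 4 genotypes, by -1.77 to -1.90 at day 15, and its libraries ran from 16 to 21.7 CPM at day 15 (median 18.2, 12 libraries) and from 55.7 to 75.7 CPM at day 0 (median 69.6, 12 libraries). Bmi1 rose by 1.87 to 3.19, with day 15 libraries at 23.2 to 36.0 CPM (median 31.7) and day 0 libraries at 2.47 to 12.1 CPM (median 4.58). Cbx8 rose by 3.14 to 3.97, with day 15 libraries at 14 to 26.5 CPM (median 19.1) and day 0 libraries at 0.495 to 3.02 CPM (median 1.72). For these 3 genes no day 15 library overlapped a day 0 library. Cbx2 followed the same arc as in E14, with day 6 libraries at 61.7 to 121 CPM (median 85.0) and day 15 libraries at 16.6 to 32.9 CPM (median 23.1), none overlapping. Its day 6 rise was called in 3 of the 4 genotypes, and in the KAT6A knockout it was 0.40 ± 0.20 (adjusted p = 0.102). In the KAT6B knockout that call (0.94 ± 0.26, adjusted p = 0.0132) was lost without day 0 replicate 2 or 3 or day 6 replicate 1 (adjusted p up to 0.115).

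Cbx7 fell by day 15 in each, by -0.66 ± 0.18 in the double knockout (adjusted p = 0.00509), -0.95 ± 0.25 in the KAT6A knockout (adjusted p = 0.00411), -1.21 ± 0.37 in the KAT6B knockout (adjusted p = 0.0138, and -0.87 without the library that stood apart) and -2.04 ± 0.25 in E14. Pcgf2 passed at day 15 in 3 genotypes but not in the KAT6B knockout (-0.36 ± 0.15, adjusted p = 0.0569), where leaving out the library that stood apart made it a call (-0.51, adjusted p = 0.0106). Its double knockout call (-0.34 ± 0.13, adjusted p = 0.0395) passed in 2 of the 6 fits with a library left out, those without day 0 replicate 2 or day 15 replicate 3. Rnf2 fell at day 15 in the double knockout (-0.52 ± 0.14, adjusted p = 0.00532) and the KAT6A knockout (-0.45 ± 0.13, adjusted p = 0.00726), and its changes in the KAT6B knockout (-0.31 ± 0.19, and -0.17 ± 0.16 without the library that stood apart) and E14 passed no threshold. Whether these genotypes differ was asked with interaction terms for the change between days 0 and 15.

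In the KAT6B knockout, the day 15 calls of Pcgf5 and Cbx6 depended on the library that stood apart. Without it edgeR called 7 of the 9 genes (3 higher and 4 lower, beside 61.9% of genes). Cbx8 (3.69 ± 0.44), Bmi1 (2.63 ± 0.24), Cbx2 (-1.32 ± 0.26) and Pcgf6 (-1.78 ± 0.15) were among them, beside 3.87, 2.59, -1.02 and -1.80 with it. Pcgf5 had 16.9, 96.0 and 90.9 CPM in the 3 KAT6B knockout libraries at day 15 and 33.0, 34.4 and 31.6 CPM at day 0, so that replicate 1 lay below and the others above all day 0 values. Its change was 1.17 ± 0.52 (adjusted p = 0.0684) with replicate 1 and 1.58 (adjusted p = 0.000604) without it. Cbx6 had 397, 104 and 118 CPM at day 15 and 86.3, 98.5 and 87.9 CPM at day 0 in that line, the change being 1.28 ± 0.40 (adjusted p = 0.0152) with replicate 1 and 0.37 (adjusted p = 0.0756) without it. Its call was also lost without any of the 3 day 0 libraries. Npcd was at 47.0, 11.3 and 14.2 CPM in the same 3 libraries, and the mesenchyme markers at 17600, 5120 and 4400 CPM, with the part of either in the Cbx6 value not tested. In the double knockout Cbx6 was called higher at day 15, at 129, 155 and 158 CPM against 82.1, 81.5 and 80.5 CPM at day 0 (0.86 ± 0.17, adjusted p = 0.000655). Pcgf5 was called higher in the double knockout by 0.33 ± 0.14 (adjusted p = 0.0473), a call that held without day 0 replicate 2 or day 15 replicate 2 and not without any other library.

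The turnover within a library can also be given as a ratio of paralog counts, which does not depend on how libraries are scaled. Pcgf2:Bmi1, Pcgf6:Pcgf5 and Cbx7:Cbx8 each set a gene that fell in E14 against one that rose. Their fall restates the changes above and is no separate test. Ratios of counts between genes of different length carry no meaning as levels, only as changes. Pcgf2:Bmi1 in E14 ran from 29.1 to 51.4 at day 0, 15.3 to 39.6 at day 2, 5.96 to 7.42 at day 6 and 1.79 to 2.17 at day 15. In all 12 libraries of a day it ran from 1.55 to 3.76 at day 15 and from 8.11 to 51.4 at day 0. Pcgf6:Pcgf5 in E14 ran from 2.75 to 3.96 at day 0, 2.57 to 2.82 at day 2, 0.856 to 1.73 at day 6 and 0.361 to 0.387 at day 15. Both PCGF ratios thus had their day 15 libraries below all their day 0 libraries, also over the 12 libraries of a day.

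Cbx7:Cbx8 in E14 ran from 113 to 310 at day 0, 258 to 474 at day 2, 12.3 to 26.9 at day 6 and 2.31 to 4.45 at day 15. Cbx7:Cbx2 behaved differently, with both genes lower at day 15 than at day 0 and Cbx2 highest at day 6. In E14 it ran from 4.04 to 4.41 at day 0, 0.64 to 1.81 at day 6 and 1.49 to 2.75 at day 15. In the double knockout it ran from 3.33 to 3.83 at day 0, 0.914 to 1.32 at day 6 and 5.07 to 5.32 at day 15, so that its day 15 libraries lay above those of its own day 0 and above all 3 E14 libraries of day 15. In the KAT6A knockout the ratio ran from 3.57 to 5.22 at day 15, also above all 3 E14 libraries, and from 3.35 to 4.28 at day 0. In the KAT6B knockout replicate 1 at day 15 the ratio was 0.866, beside 4.13 and 5.32 in the other two.

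**Figure D3:**
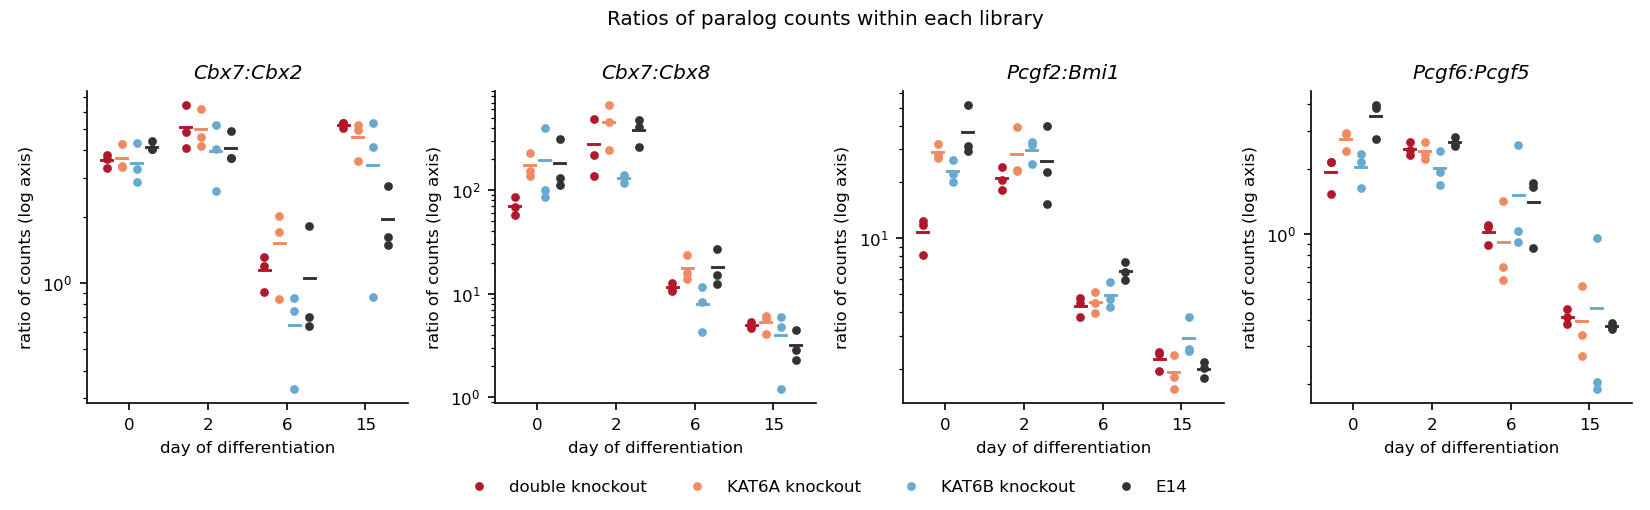
Ratio of raw counts of 2 paralogs within each library (log axis) by day, with genotypes left to right as double knockout, KAT6A knockout, KAT6B knockout and E14, and bars at group means. Pcgf2:Bmi1 lies between 8.11 and 12.3 in the double knockout at day 0, below the other genotypes of that day, and Cbx7:Cbx2 returns to 5.07 to 5.32 in the double knockout at day 15.

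Each knockout was then compared with E14 on the same day, to ask whether losing the acetyltransferases altered the family. The 3 comparisons of a day share the E14 libraries. Of 108 tests of the 9 genes, 2 were called, both in the double knockout at day 0, where 2.09% of all genes were called. Changes in the 108 tests ran from -0.59 to 1.35, and the adjusted p of those not called from 0.0797 to 1.

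In double knockout ESCs Bmi1 was at 12.1, 7.24 and 8.43 CPM, against 2.47, 3.67 and 4.48 CPM in E14. The groups did not overlap, as they did not for 18.2% of all genes. The change was 1.35 ± 0.26 (adjusted p = 0.0195), and 1.11 to 1.54 when each library was left out, with the call lost without E14 replicate 1 or double knockout replicate 1 (adjusted p up to 0.0708) or with only the 2 groups in the fit (adjusted p = 0.1). In the KAT6A knockout Bmi1 had 4.21, 4.19 and 4.67 CPM and in the KAT6B knockout 5.02, 3.62 and 5.58 CPM, with changes of 0.23 ± 0.26 and 0.38 ± 0.26 (adjusted p = 0.937 and 0.553). At later days the Bmi1 change in the double knockout was 0.03 ± 0.28 at day 2, 0.35 ± 0.17 at day 6 and 0.07 ± 0.13 at day 15, none called. Within the double knockout, Bmi1 at day 2 (4.39, 3.74 and 3.78 CPM) lay below all its day 0 values (-1.22 ± 0.20, adjusted p = 0.00267).

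Pcgf5 was at 31.7, 36.2 and 31.4 CPM in double knockout ESCs, against 18.7, 24.3 and 18.5 CPM in E14 (0.66 ± 0.14, adjusted p = 0.0275). The groups did not overlap. The call is fragile: with each library left out the change was 0.59 to 0.81, and it passed only without E14 replicate 2 (adjusted p up to 0.105). It was also lost with only the 2 groups in the fit (0.67, adjusted p = 0.164) and with all 48 libraries (0.69, adjusted p = 0.463). In the KAT6B knockout Pcgf5 was at 33.0, 34.4 and 31.6 CPM, and its change of 0.66 ± 0.14 had an adjusted p of 0.123. In the KAT6A knockout it was 24.7, 27.4 and 25.6 CPM (0.28 ± 0.14, adjusted p = 0.93), also above all E14 libraries. Among the other members in double knockout ESCs, Pcgf2 was at 97.9, 89.3 and 99.6 CPM against 127, 107 and 139 CPM in E14 (-0.41 ± 0.11, adjusted p = 0.0797). Cbx6 was at 82.1, 81.5 and 80.5 CPM against 134, 94.0 and 100 CPM in E14 (-0.46 ± 0.13, adjusted p = 0.0817). DESeq2 called both (adjusted p = 0.03 and 0.0344). Marker sums differed between these ESCs too: the pluripotency markers summed to 1880 to 2290 CPM in the double knockout and 2470 to 2870 CPM in E14, and the mesenchyme markers to 529 to 818 CPM in the double knockout and 188 to 298 CPM in E14, their part not tested.

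**Figure D4:**
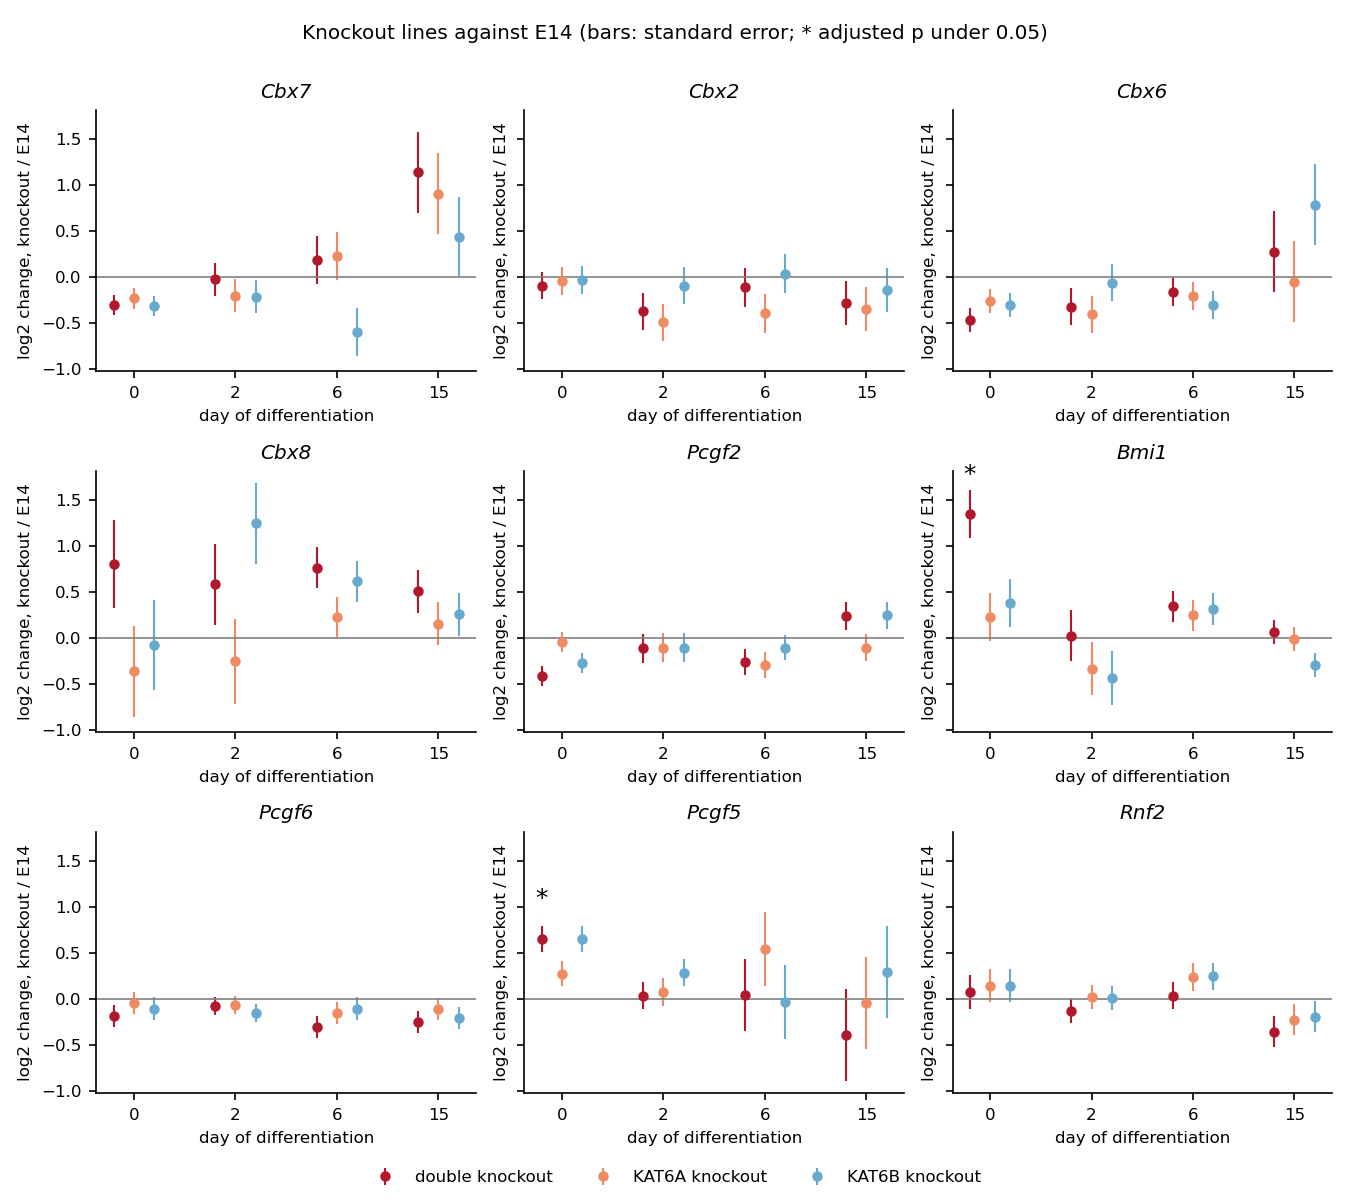
log2 change of each gene in the double, KAT6A and KAT6B knockouts (left to right) against E14 of the same day, from edgeR, with points for the estimates, bars for 1 SE either way and asterisks for an adjusted p under 0.05. Bmi1 (1.35) and Pcgf5 (0.66) in the double knockout at day 0 are the 2 called values.

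At day 15 no member was called in any knockout against E14, which for 9 genes does not differ clearly from the share of all genes. In the double knockout edgeR called 643 genes (3.18%). That number ran from 0 to 4393 under the other settings, and the 15 genes of the KAT6B knockout became 0 to 3185. In the double knockout at day 15, 2 members had an unadjusted p under 0.05 and DESeq2 called none. Cbx7 had the largest difference of the 9 in the double and KAT6A knockouts: 124, 117 and 112 CPM in the double knockout, 140, 100 and 59.1 CPM in the KAT6A knockout and 28.5, 99.2 and 92.5 CPM in the KAT6B knockout, against 43.3, 75.5 and 40.3 CPM in E14. The double knockout libraries lay above all of E14, and the single knockouts overlapped it, the KAT6B knockout only through replicate 1, the library that stood apart. The changes were 1.14 ± 0.44 (adjusted p = 0.151), 0.91 ± 0.44 (adjusted p = 0.46) and 0.44 ± 0.43 (adjusted p = 0.585). Without that library the KAT6B knockout change was 0.82 ± 0.34 (adjusted p = 0.127). The double knockout change was called in 3 of the other settings tried, 1.13 with only the 2 groups in the fit (adjusted p = 0.0373), 1.15 with all 48 libraries (adjusted p = 0.0071) and 1.14 ± 0.31 without the KAT6B knockout library that stood apart, which enters the spread of the day (adjusted p = 0.0429, beside 12.4% of genes called). Groups did not overlap for 6 of the 9 members in the double knockout at day 15, beside 42% of all genes. The neuron markers were lower and the mesenchyme markers higher in all double knockout than in all E14 libraries at this day (139 to 823 against 1350 to 2430 CPM, and 7200 to 8060 against 1580 to 4080 CPM), and their part in these differences was not tested.

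At days 2 and 6 no member was called in any knockout against E14. In the double knockout 0 members at day 2 and 2 at day 6 had an unadjusted p under 0.05. The share of all genes at that unadjusted threshold is not given here. At the adjusted threshold edgeR called 1.12% and 0.0682% of all genes at days 2 and 6. DESeq2 called none at day 2 and 1 at day 6, Cbx8, at 9.48, 8.91 and 7.40 CPM against 5.73, 4.37 and 4.72 CPM in E14 (DESeq2 0.78, adjusted p = 0.0322, and edgeR 0.77 ± 0.22, adjusted p = 0.285). In the KAT6A knockout 0, 1, 0 and 0 members had an unadjusted p under 0.05 at days 0, 2, 6 and 15, and neither edgeR nor DESeq2 called any. Over all genes edgeR called 0%, 0.0102%, 0% and 0% at those days. In the KAT6B knockout 4, 1, 2 and 1 members had an unadjusted p under 0.05 at those days, edgeR called none, and DESeq2 called Pcgf5 at day 0 (0.66, adjusted p = 0.00218). Over all genes edgeR called 0.0106%, 0%, 0.0292% and 0.0742%, and without day 15 replicate 1 it called no member at day 15 either, beside 9.33% of genes. The changes at day 15 without it were 0.75 ± 0.27 for Pcgf5 (adjusted p = 0.0891; 0.30 with it), -0.15 ± 0.19 for Cbx6 (0.79 with it), -0.44 ± 0.21 for Cbx2 (-0.14 with it) and -0.23 ± 0.13 for Bmi1 (-0.29 with it), and 2 members had an unadjusted p under 0.05. Cbx8 in the KAT6B knockout at day 2, at 1.28, 1.29 and 1.46 CPM against 0.533, 0.723 and 0.446 CPM in E14, gave 1.25 ± 0.44 (adjusted p = 1).

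Whether a knockout's effect changed between day 0 and day 15 was tested directly as an interaction. In the double knockout edgeR called such a change for 2 of the 9 genes, beside 2.51% of all genes: Cbx7 by 1.42 ± 0.28 (adjusted p = 0.0286) and Pcgf5 by -1.07 ± 0.21 (adjusted p = 0.0261). The difference of Cbx7 from E14 was 1.14 ± 0.44 at day 15 and -0.30 ± 0.11 at day 0, neither called on its own. The SE of a difference within a day comes from the fit of that day. The biological coefficient of variation was 37.8% in the day 15 fit and 19.3% in the day 0 fit. The interaction fit pooled days 0 and 15 at 27.1%, and its SEs are smaller than those of day 15 alone. Pcgf5 was at 44.2, 35.6 and 44.9 CPM in the double knockout at day 15, against 56.0, 55.3 and 50.9 CPM in E14 (-0.39 ± 0.50), where the day 0 difference was 0.66 ± 0.14. The groups overlapped at neither day. Each of the 2 calls held in 4 of the 12 fits that left out a library, with adjusted p up to 0.0775 and 0.0748, and that of Pcgf5 was lost with all 48 libraries in the fit (adjusted p = 0.219). Those 4 were the fits without E14 day 0 replicate 2, E14 day 15 replicate 2, or double knockout day 15 replicate 2 or 3. Bmi1 had -1.29 ± 0.32 (adjusted p = 0.0535), and passed in 5 other settings, with adjusted p of 0.00384 in DESeq2 to 0.0499 with another scaling. Rnf2 was not called, and Pcgf2 was called only without E14 day 0 replicate 2 (0.74, edgeR adjusted p = 0.0379). In the double knockout 5 of the 9 members had an unadjusted p under 0.05 for this change. In the KAT6A and KAT6B knockouts edgeR and DESeq2 called none of the 9 genes, where edgeR called 0% and 0.0436% of all genes. In each, 1 member had an unadjusted p under 0.05, a threshold for which the share of all genes is not given. Without KAT6B knockout day 15 replicate 1, Cbx7 was called in that line, by 1.08 ± 0.30 (adjusted p = 0.0482, beside 6.81% of genes; 0.65 and adjusted p = 0.598 with it).

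The levels of each gene over the 16 group means were ordered and neighbours compared for overlap of their libraries. Cbx8 spanned the widest range, from 0.485 CPM in the KAT6A knockout at day 2 to 23.8 CPM in the double knockout at day 15, a ratio of 49.1. Its order had gaps below the 4 day 15 groups, below the 4 day 6 groups and below the double knockout at day 0, while the other neighbours overlapped. Bmi1 ran from 2.85 CPM (KAT6B knockout, day 2) to 33.6 CPM (double knockout, day 15), a ratio of 11.8, with gaps below the 4 day 15 groups and below the double knockout at day 0. Pcgf6 ran from 17.1 to 71.2 CPM, with gaps on either side of the 4 day 6 groups. Cbx7 ran from 53.0 CPM (E14, day 15) to 225 CPM (E14, day 0), with its single gap between the 8 groups of days 0 and 2 and the 8 of days 6 and 15. Cbx2 ran from 21.4 to 94.9 CPM, with its 4 day 6 groups highest and its 4 day 15 groups lowest by mean. The lowest day 6 group was clear of its neighbour in the order, and so was the highest day 15 group, but single libraries of day 6 (down to 61.7 CPM) overlapped those of days 0 and 2 (up to 65.3 CPM), and those of day 15 (up to 32.9 CPM) overlapped day 2 (down to 31 CPM). Cbx6 (66.5 to 206 CPM) had 1 pair of neighbours that did not overlap, and Pcgf2 (59.2 to 126 CPM), Pcgf5 (20.5 to 68.0 CPM) and Rnf2 had none, so that no 2 neighbours in their order differed beyond their spread.

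Across the 16 group means of log2 CPM, which share the day and genotype structure, Bmi1 and Cbx8 had a Pearson r of 0.97 with each other and -0.94 each with Pcgf6. Cbx7 had 0.81 with Pcgf6 and 0.73 with Pcgf2, and Cbx2 had -0.83 with Cbx6. Among 11736 named genes whose mean reached 5 CPM, those most like each member over the 16 groups were Cct7 and Lyar for Pcgf6 (0.996 each), Flrt2 and Plekhm2 for Cbx8 (0.987 and 0.985), Zfp9 and Gab2 for Bmi1 (0.986 each), and Cand2 and Prtg for Cbx2 (0.97 and 0.967). They were Ess2 and Dffb for Pcgf2 (0.969 and 0.964), Setd4 and Fbxo17 for Cbx7 (0.96 and 0.956), and Nrg1 and Syne1 for Pcgf5 (0.944 and 0.925). For Cbx6 they were Als2cl and Tob1 (0.915 and 0.913), and for Rnf2 Pds5b and Vdac3 (0.91 and 0.903). The likeness of some rests on the group means: over the 48 single libraries Dffb stood at 0.717 (rank 1075), Nrg1 at 0.659 (rank 425), Syne1 at 0.618 (rank 757), Als2cl at 0.573 (rank 458) and Tob1 at 0.72 (rank 34), and the gene closest to Cbx6 was Npcd, which overlaps it. The genes named for Pcgf6, Cbx8, Bmi1 and Cbx2 ranked within the first 10 over the single libraries.

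The other genes of PRC1 were followed in a list of 30, from the partner RING1 protein and further PCGF and PHC proteins to the subunits of variant complexes. In E14 at day 15, 24 of the 30 were called (beside 69.7% of all genes), 10 higher and 14 lower (36.5% and 33.2%), with a median change of -0.35 beside 0.08 over all genes. In the double, KAT6A and KAT6B knockouts 23, 25 and 22 were called at day 15, beside 67.6%, 68.7% and 61.9% of all genes, and in the KAT6B knockout 21 without the library that stood apart. Called in all 4 genotypes at day 15 were 7 genes with higher and 12 with lower levels, and the share of all genes so called is not given. Phc1, a polyhomeotic subunit of canonical PRC1, fell in E14 to 97.8 CPM at day 15, against 744 CPM at day 0 (-2.89 ± 0.19, adjusted p = 1.87e-08), and by -2.89 to -3.48 over the genotypes. Its paralogs Phc2 and Phc3 were called higher in all 4, by 1.26 to 1.49 and 1.38 to 1.72. L3mbtl2, the partner of PCGF6, fell in E14 to 40.8 CPM, against 248 CPM (-2.57 ± 0.16, adjusted p = 1.43e-08), and by -2.42 to -2.57 over the genotypes.

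Auts2, the partner of PCGF5, rose in E14 to 226 CPM, against 56.6 CPM (2.03 ± 0.21, adjusted p = 1.4e-06), and was called in 3 of the 4 genotypes (1.23 to 2.03). Not called in the KAT6B knockout, it had a change of 1.14 there (adjusted p = 0.0506) and 0.15 ± 0.27 without the library that stood apart. Ring1, the partner catalytic paralog, was called higher in all 4 by 0.90 to 1.68, beside Rnf2 with its -0.03 to -0.52. Yaf2 was called higher in all 4 (1.35 to 1.49) and its paralog Rybp lower (-1.13 to -1.34). Of the genes of the PCGF1 complex, Usp7 (-1.55 to -1.69), Skp1 (-1.05 to -1.59) and Kdm2b (-0.76 to -1) were lower in all 4. Mga, of the PCGF6 complex, was lower in all 4 (-0.71 to -0.90), and Pcgf1 itself was called in none at day 15. In the knockouts against E14 edgeR called 0 of the 30 on any day or in an interaction, with 0 to 7 at an unadjusted p under 0.05. Without KAT6B knockout day 15 replicate 1, it called 4 of the 30 at day 15 in the double knockout, beside 12.4% of all genes, a similar share. Among the 4 were Auts2 (-1.05 ± 0.30, adjusted p = 0.0486), Phc1 (-0.65 ± 0.17, adjusted p = 0.0399) and Kdm2b (-0.39 ± 0.10, adjusted p = 0.0338). Against E14, the KAT6B knockout then had 1 call of the 30, Auts2, at day 15 (-1.85 ± 0.35, adjusted p = 0.0264) and in the interaction (-1.98 ± 0.29, adjusted p = 0.00509). Of all genes, 9.33% were called at day 15 and 6.81% in the interaction.

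The HP1 genes Cbx1, Cbx3 and Cbx5 carry the same kind of chromodomain but read another histone mark, and CBX3 is also known as a partner in the PCGF6 complex. All 3 were called lower at day 15 in all 4 genotypes, where 34.1%, 32.9%, 28.2% and 33.2% of all genes were called lower in the double, KAT6A and KAT6B knockouts and E14. The share of all genes called lower in all 4 is not given. In E14 the changes were -2.02 ± 0.17 for Cbx1 (adjusted p = 1.93e-07), -1.03 ± 0.13 for Cbx3 (adjusted p = 7.19e-06) and -0.33 ± 0.13 for Cbx5 (adjusted p = 0.0395). Cbx5 was the 1 HP1 gene called against E14, in the double knockout at day 15 (-0.57 ± 0.13, adjusted p = 0.0437).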

How the data were processed

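Libraries were depleted of ribosomal RNA and strand-specific, per the labels' protocols. Per the submitters' processing notes, reads were aligned with HISAT2 to GRCm39. What program counted the reads, with which annotation and strand option, is not given in the sources used here. The authors deposited 1 table of raw counts per gene; it has 36983 entries, and 48 repeats of an identifier already listed were dropped. Libraries were grouped by the labels' genotype and day. Counts were tested with edgeR 4.0.16 in R 4.3.3 (expression filter with a minimum count of 10 and total of 15, TMM scaling, robust quasi-likelihood F test), with p-values adjusted over all genes of each comparison. The 12 libraries of a genotype were fitted together for time, the 12 of a day for knockouts, and 12 for each interaction; log2 CPM has a prior count of 2. In the E14 time course the biological coefficient of variation was 23.3%, and within day 15 it was 37.8%. The replicates are independent differentiations, so p-values measure the spread between these. The tests were tested on simulated data. DESeq2 1.42.0 and other settings were alternatives.

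The members, lists and tests were chosen with earlier results of these data known. The text names all 9 members, up to 4 called genes of the PRC1 list with the largest change per comparison, further genes of that list picked by role after their values were seen, and for each member the 2 most correlated genes with a symbol, predicted-gene names not counted; results on 1 gene of the list are not reported here. Same-numbered libraries deviated together in 2 of 26 comparisons (every r over 0.1), the double knockout at day 2 against day 0 and against E14 at day 6; r ran from -0.31 to 0.56.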

Additional observations from a re-analysis of the deposited data

Results flagged for a closer look

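The effect of the double knockout against E14 changed between day 0 and day 15 by 1.42 for Cbx7 and by -1.07 for Pcgf5 on the log2 scale, each past the threshold of the test of that change. That test pools both days in the same estimate of spread, although the libraries of day 15 varied more than those of day 0. For Pcgf5, all 3 double knockout libraries lay below E14 at day 15 (-0.39, edgeR adjusted p = 0.651, not called) and all 3 above it at day 0 (0.66, called). The groups of these comparisons did not overlap for 42% of all genes at day 15 and 18.2% at day 0. For Bmi1, all 3 KAT6B knockout libraries lay below E14 at day 15 (-0.29, and -0.23 without replicate 1) and all 3 above it at day 6 (0.32). Neither Bmi1 difference was called (edgeR adjusted p = 0.241 at day 15), and the difference between these days was not tested. The share of all genes whose groups did not overlap is not given for the KAT6B knockout.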

How the results depend on the processing

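Of 60 calls of members in the comparisons of a day with day 0, 725 of 780 values under the alternatives kept their direction and call, 55 kept the direction and lost the call, and none reversed. For the 13 calls between later E14 days it was 160 and 9 of 169, for the 2 knockout calls 16 and 10 of 26, and for the 2 interaction calls 19 and 17 of 36, again with none reversed. The number of members called moved as follows. With only the compared groups in the fit it was 1 for E14 at day 2 (2 in the fit of all days), 0 for the double knockout against E14 at day 0 (2 in the fit of the day) and 1 at day 15 (otherwise 0). With all 48 libraries it was 1 for the KAT6B knockout at day 2, 1 for the double knockout against E14 at day 0 and 1 at day 15. DESeq2 called 1 for the KAT6B knockout at day 2, 4 and 1 for the double knockout against E14 at days 0 and 6, and 1 for the KAT6B knockout against E14 at day 0. With a term for the replicate block, the KAT6B knockout against E14 at day 0 had 1 (Pcgf5, 0.67, adjusted p = 0.0456). Leaving out each library gave 0 to 2 calls for E14 at day 2, 0 to 3 for the KAT6A knockout and 0 to 1 for the KAT6B knockout at day 2, 0 to 5 for the double knockout and 0 to 2 for the KAT6B knockout against E14 at day 0, 0 to 3 for the double knockout interaction, 0 to 1 for the double knockout against E14 at day 15 and 0 to 1 for the KAT6B knockout interaction (Cbx7, 1.08, adjusted p = 0.0482, without day 15 replicate 1). The cause was not tested.

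By the rule that every r exceed 0.1, replicate numbers paired libraries only in the comparisons named in the methods. The rule may miss pairing elsewhere: the double knockout against E14 at day 0 had r of 0.14, 0.09 and 0.33. With the replicate block that comparison still had 2 members called. Beyond the counts named above, the block changed no count of members by over 1.5 times. Counts over all genes depended on the setting: 395 for the double knockout against E14 at day 0 became 40 to 1940, 643 at day 15 became 0 to 4393, and 15 for the KAT6B knockout at day 15 became 0 to 3185. Leaving KAT6B knockout day 15 replicate 1 out of the comparisons of the other lines at day 15 was chosen after seeing the data. Size factors by relative log expression shifted the median of all genes by at most 0.127 (log2).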
